A study of Mus musculus with 233 samples.

Results

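Arpp21, Nap1l3, Tceal6, Dach1, Impdh1, Stk32c, Mzt2, Atp2b3, Noa1 and Eid2b are 10 of the 41129 gene entries measured in mouse striatum after viral delivery of a zinc finger repressor. They were selected because their transcripts were lower under the repressor than under the control viruses in most comparisons, in mice with and in mice without an expanded Huntingtin allele. The differences between repressor and control viruses are therefore given below as a description of the selected genes, with standard errors (SE), and where calls or p-values from these contrasts are counted, nothing is read from them. Measurements that the selection did not use are tested: the genotype difference under the non-coding virus, the relation to the amount of repressor within groups, and genes outside the 10.

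The groups were zQ175 mice, heterozygous for the zQ175DN knock-in in which human HTT exon 1 with an expanded CAG tract stands in place of mouse Htt exon 1, and wild-type (WT) littermates, each with 3 viruses. nZFP is an AAV2/2+1 vector for the HA-tagged repressor ZFP30645, which is aimed at expanded CAG repeats, under the human synapsin promoter. DBD is the same type of vector and promoter with a repressor that lacks the part that binds DNA, and Estop carries a stuffer sequence between transcription blockers and codes for no protein. Injection was at 2 months of age, with collection at 6 months (2M_6M) or 8 months (2M_8M), or at 6 months, with collection at 8 (6M_8M), 10 (6M_10M) or 12 months (6M_12M). Both striata of a mouse were injected, and treatment lasted 2 to 6 months. Lists of 5 values follow these paradigms in the order given. The 30 groups held 6 to 8 libraries, 233 in all from 120 mice of both sexes, and 113 mice gave a library from each hemisphere with different viruses. The synapsin promoter is active in neurons, while the libraries were made from whole striatal tissue with its glia, so each value averages over cells with and without the vector. In bulk tissue, fewer cells of a type and less RNA per cell cannot be told apart.

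Libraries held 27993215 to 61296071 gene counts (median 37385953). The vector entry ZFP-30645 separated the viruses, with a median of 595 CPM (counts per 1000000; 98.7 to 1087) in 77 nZFP libraries, 8.26 CPM in 75 DBD libraries and 10.6 CPM in 77 Estop libraries. The other 4 libraries contradicted their labels. In 6M_8M these were the library labelled zQ175 nZFP R5, with 8.55 CPM of ZFP-30645, and 2 labelled WT DBD, R7 and R8, with 321 and 480 CPM. The fourth was labelled WT DBD R6 of 2M_6M and had 59.2 CPM of WPRE, an RNA element of both protein-coding vectors, against a median of 1689 CPM in DBD libraries. Levels below leave these 4 out unless stated, and comparisons are given with and without them. A further 3 libraries, zQ175 nZFP R2 of 6M_10M, zQ175 DBD R3 of 2M_6M and WT DBD R2 of 6M_10M, stood apart in the balance of long against short genes, with a length index over 1 log2 unit from the median of their group. Every gene of the 7 marker lists for striatal projection neurons, all neurons, cortical neurons, astrocytes, microglia, oligodendrocytes and endothelial cells was detected. The summed level of the striatal projection list had a median of 8269 CPM under nZFP, 6131 CPM under DBD and 6713 CPM under Estop in zQ175, and of 12390, 12112 and 12587 CPM in WT. That of the neuron list was 4773, 4752 and 5010 CPM in zQ175, and 4764, 4601 and 4869 CPM in WT. The part of these lists in the differences between viruses was not tested.

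A zinc finger protein binds DNA through an array of small domains, each of which reads a few neighbouring bases, and a repressor domain fused to the array lowers transcription nearby. A repeat offers such an array many overlapping binding sites, and a longer repeat offers more of them. CAG repeats occur in many normal genes, in coding sequence as well as in untranslated regions, and CTG is the same repeat read on the opposite strand. The 10 genes have no shared function. Nap1l3, Tceal6, Dach1 and Eid2b belong to families that act on chromatin and transcription, Arpp21, Stk32c and Atp2b3 act in signalling and calcium handling, and Impdh1, Noa1 and Mzt2 serve nucleotide synthesis, mitochondria and microtubules.

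The sequences of 6 of the 10 genes were read for runs of CAG, on either strand, in the promoter windows of RefSeq (250 bases before to 50 after a start, GRCm38.p6) and in the first 1000 bases of their annotated transcripts (GRCm38). Those of Mzt2, Atp2b3, Noa1 and Eid2b were not analysed here. Runs of at least 4 copies of CAG, or of CTG, stood in the transcripts of 4 genes, and such a run is present in 3.57% of 16519 protein-coding genes scanned the same way. Runs of at least 6 copies, held by 0.805% of those genes, stood in 3 of them: 8 copies in Nap1l3 and 6 each in Tceal6 and Dach1. Impdh1 held 4, while the longest runs of Arpp21 and Stk32c were 2 copies. The stretches are printed because they are the repeats of these genes most like the intended target, with runs in capitals. They read 5′ to 3′ with the letters of the transcript, which are those of the minus strand for all 4 genes.
Nap1l3, coding sequence, chrX:122396805-122396882: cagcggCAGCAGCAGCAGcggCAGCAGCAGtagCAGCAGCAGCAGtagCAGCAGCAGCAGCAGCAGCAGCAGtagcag
Dach1, coding sequence, chr14:98168849-98168929: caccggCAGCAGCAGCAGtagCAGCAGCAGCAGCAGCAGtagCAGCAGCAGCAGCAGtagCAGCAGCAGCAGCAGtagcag
Tceal6, 5′ untranslated region, chrX:135210626-135210655: ctagtcCTGCTGCTGCTGCTGCTGcggata
Impdh1, 5′ untranslated region, chr6:29212239-29212262: gcgcgtCAGCAGCAGCAGcggcgg
In Nap1l3 and Dach1 the runs lie inside the coding sequence and are separated by single triplets. In Tceal6 the run lies at bases 39 to 56 of the transcript and on the CTG strand, and the promoter window of Tceal6 holds the first 4 copies of it. Of 32851 promoter windows, 0.368% hold a run of at least 4 copies. The run of Impdh1 belongs to the transcript that starts within the gene, whose promoter window (chr6:29212248-29212547, minus strand) also holds 2 runs of 2 copies upstream of the start.
Impdh1, promoter window: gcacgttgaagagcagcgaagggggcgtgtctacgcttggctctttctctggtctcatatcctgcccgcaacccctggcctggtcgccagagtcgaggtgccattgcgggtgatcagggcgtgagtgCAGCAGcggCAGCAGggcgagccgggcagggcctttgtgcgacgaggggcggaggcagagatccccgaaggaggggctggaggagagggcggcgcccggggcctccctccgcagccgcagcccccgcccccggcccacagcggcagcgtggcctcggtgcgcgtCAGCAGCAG
A match is a description of these letters and not a measured binding site.

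Under Estop, the level per transcript length (TPM, in which a library sums to 1000000) placed Arpp21 far above the other members. Its median was 826 TPM in zQ175 (614 to 1122, n = 40 libraries) and 1657 TPM in WT (1321 to 1950, n = 37). Stk32c followed with 229.6 TPM in zQ175 and 238 TPM in WT, and Tceal6 with 198 TPM in zQ175 and 190.0 TPM in WT. The ranges of Stk32c and Tceal6 overlapped in both genotypes. Impdh1, Dach1, Mzt2, Atp2b3, Nap1l3, Eid2b and Noa1 had medians between 20.2 and 51.1 TPM in zQ175 and between 16.2 and 57.2 TPM in WT, and neighbours in that order overlapped. The lowest value of any member in an Estop library was 9.25 TPM, for Eid2b in WT.

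**Figure D1:**
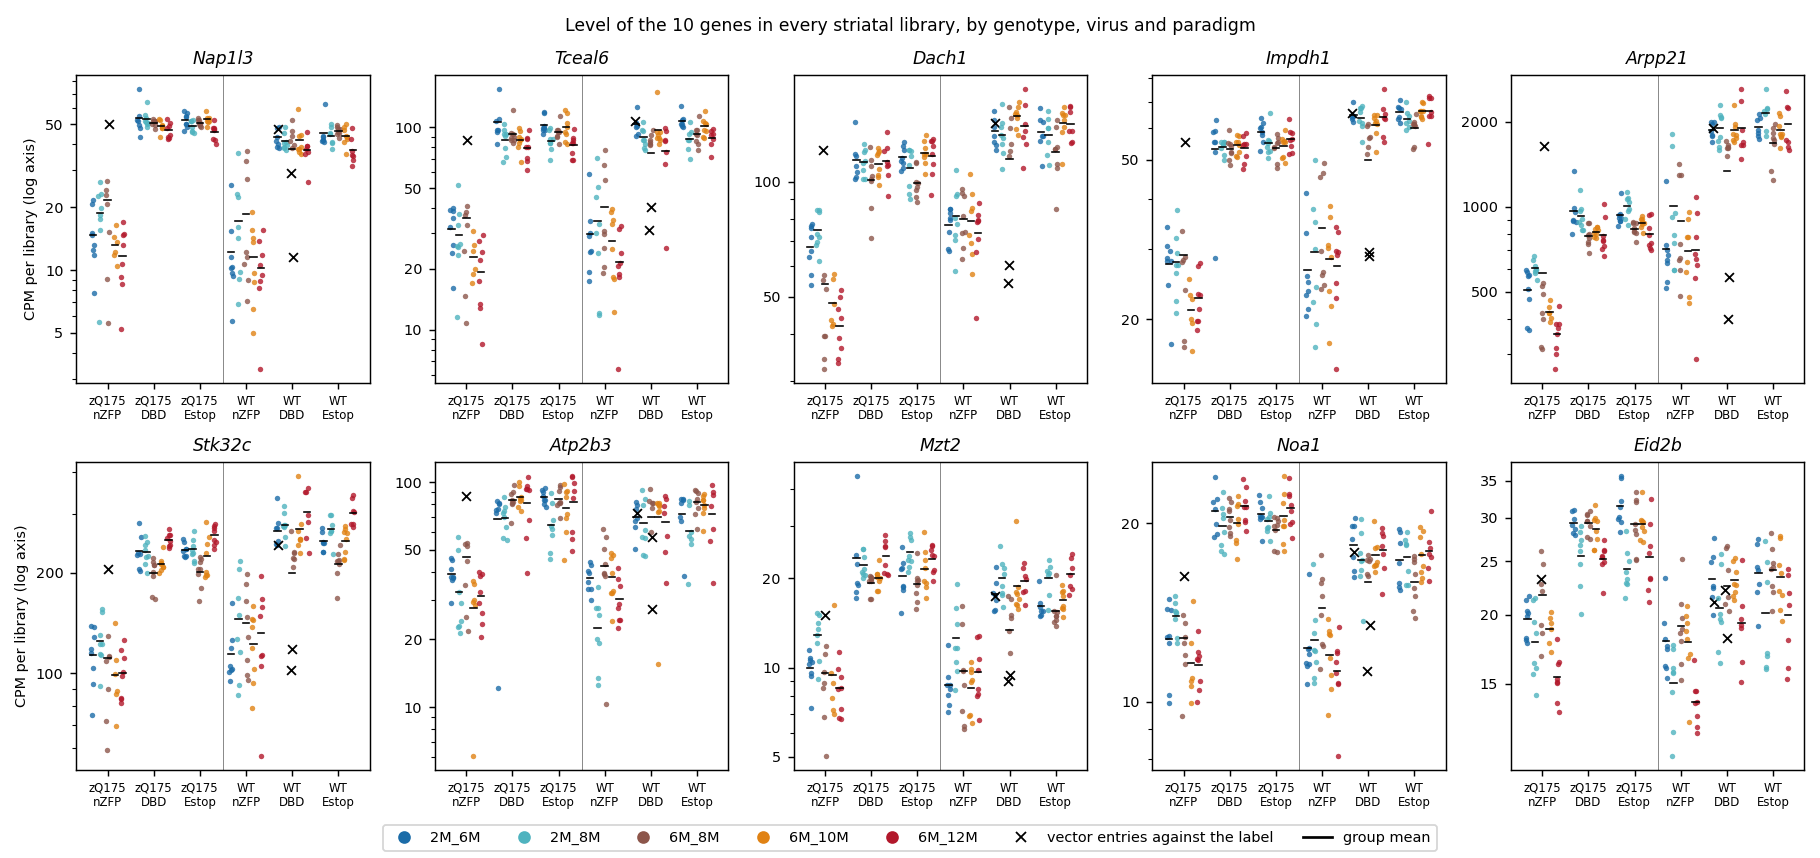
CPM of each gene (log axes) in every library, grouped by genotype and virus and coloured by paradigm, with black bars for group means and crosses for the 4 libraries whose vector entries contradict their label. Group means under nZFP lie below those under DBD and Estop in both genotypes, and DBD and Estop libraries overlap within each genotype.

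Nap1l3 and Tceal6, which hold runs of 8 and 6 copies, had the lowest levels under nZFP relative to DBD, while Dach1, also with 6, did not. Nap1l3, a member of the nucleosome assembly family of histone chaperones (chromosome X, 122394565 to 122397401), had medians of 13.9, 19.1, 20.7, 12.9 and 12.0 CPM in zQ175 nZFP libraries, against 51.6, 51.3, 51.6, 48.8 and 46.1 CPM under DBD and 52.2, 49.9, 50.4, 52.5 and 46.9 CPM under Estop. The nZFP libraries ran from 5.22 to 26.7 CPM, and the DBD libraries from 42.5 to 73.9 CPM. In WT the medians were 10.3, 15.2, 11.8, 11.6 and 10.0 CPM under nZFP, against 41.6, 40.1, 42.8, 38.5 and 38.1 CPM under DBD and 42.2, 44.6, 46.4, 43.7 and 35.6 CPM under Estop. In all 10 pairs of groups every nZFP library lay below every DBD and every Estop library. Group means under nZFP were 25.05% to 42.4% of those under DBD (median 28.1%).

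Tceal6, of the transcription elongation factor A-like family (chromosome X, 135208687 to 135210687), stood at 34.0, 26.2, 33.1, 22.2 and 19.9 CPM in zQ175 nZFP libraries, against 97.4, 91.5, 89.1, 86.8 and 80.0 CPM under DBD. In WT it stood at 26.7, 31.6, 30.3, 29.2 and 21.0 CPM under nZFP, against 102, 86.6, 85.7, 90.2 and 85.6 CPM under DBD. Groups overlapped in 1 pair, WT 6M_12M, where 1 DBD library held 25.3 CPM while the nZFP libraries reached 32.6 CPM. Means under nZFP were 24.5% to 46.2% of those under DBD (median 29.2%).

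Dach1, a transcriptional cofactor related to Drosophila dachshund (chromosome 14, 97786853 to 98169765), differed by a smaller factor, and its nZFP level in zQ175 was lower in the paradigms with injection at 6 months. After injection at 2 months the medians were 68.8 and 72.5 CPM in zQ175 nZFP libraries, against 110 and 113 CPM under DBD. After injection at 6 months they were 39.5, 45.6 and 41.4 CPM under nZFP, against 103, 113 and 112 CPM under DBD. WT showed no such split, with 79.8, 78.9, 77.6, 78.3 and 78.7 CPM under nZFP, against 132, 132, 132, 150 and 136 CPM under DBD. The zQ175 nZFP libraries spanned 53.5 to 84.5 CPM after early and 32.3 to 57.4 CPM after late injection, so the ranges overlapped between 53.5 and 57.4 CPM. With all libraries as labelled, the log2 difference between nZFP and DBD in zQ175 was -0.78, -0.59, -0.92, -1.22 and -1.43 (SE 0.08 to 0.19). In WT it was -0.81, -0.71, -0.52, -0.92 and -0.92 (SE 0.08 to 0.19). The difference of zQ175 from WT in these values was 0.04, 0.12, -0.39, -0.30 and -0.51 (SE 0.11 to 0.27), negative in the 3 paradigms with injection at 6 months. It passed in 0 of 5 paradigms (adjusted p from 0.308 to 0.909, edgeR). Nothing is read from this, since both contrasts chose the genes. Over all genes this difference was called lower for 185, 83, 0, 2 and 0 genes and higher for 327, 231, 0, 6 and 0. The genes tested numbered 15673, 15786, 16000, 15840 and 15523.

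Eid2b, a paralogue of the EP300-interacting inhibitors of differentiation (chromosome 7, 28277739 to 28279489), had the smallest difference of the 10 by the median over the pairs of groups, at 72.5% of the DBD level. Its medians were 20.0, 17.4, 22.1, 19.1 and 15.2 CPM in zQ175 nZFP libraries, against 29.1, 26.4, 29.6, 29.0 and 25.5 CPM under DBD. In WT they were 17.5, 15.7, 18.7, 18.4 and 13.9 CPM under nZFP, against 22.6, 19.9, 22.8, 22.7 and 19.2 CPM under DBD. Every nZFP library lay below every DBD library in 5 of the 10 pairs of groups. Means under nZFP were 61.0% to 81.8% of those under DBD, while those of Noa1 reached 84.2%, in WT 6M_8M.

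Among the signalling genes, Arpp21 encodes a phosphoprotein that is regulated by cAMP and abundant in striatal projection neurons (chromosome 9, 112065091 to 112235938). Its medians were 540, 598, 420, 421 and 363 CPM in zQ175 nZFP libraries, against 895, 894, 784, 817 and 759 CPM under DBD and 911, 1007, 827, 878 and 769 CPM under Estop. In WT they were 661, 855, 699, 708 and 663 CPM under nZFP, against 1852, 1906, 1621, 1799 and 1693 CPM under DBD and 1862, 2184, 1737, 1808 and 1725 CPM under Estop. DBD and Estop levels were lower in zQ175 than in WT. The log2 difference between nZFP and DBD was -0.95, -0.60, -0.45, -0.94 and -1.16 in zQ175 and -1.40, -0.93, -0.58, -1.43 and -1.43 in WT (SE 0.09 to 0.26). The difference of zQ175 from WT in these values passed in 0 of 5 paradigms (adjusted p from 0.159 to 0.964, edgeR), and nothing is read from this. The calls over all genes in this contrast were those given with Dach1, with 0 in either direction in 6M_8M and 6M_12M. In 6M_8M its direction turned, with -0.90 in zQ175 and -0.86 in WT without the libraries that contradict their labels. WT nZFP libraries overlapped DBD libraries in 2M_8M, where they reached 1808 CPM, and in no other pair.

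Stk32c, a serine/threonine kinase (chromosome 7, 139103638 to 139213307), had medians of 117, 122, 109, 94.1 and 99.8 CPM in zQ175 nZFP libraries, against 228, 229, 206, 211 and 252 CPM under DBD. In WT it had 104, 138, 138, 129 and 131 CPM under nZFP, against 272, 276, 225, 252 and 299 CPM under DBD. No nZFP library overlapped a DBD library of its genotype and paradigm. Atp2b3, a plasma membrane pump that moves calcium out of the cell (chromosome X, 73503086 to 73571005), was the most scattered member. It had 38.0, 26.6, 44.5, 29.7 and 30.8 CPM in zQ175 nZFP libraries, against 76.2, 71.4, 82.5, 84.5 and 92.8 CPM under DBD. In WT it had 37.6, 22.8, 41.5, 36.2 and 28.2 CPM under nZFP, against 69.0, 59.1, 81.0, 78.8 and 73.2 CPM under DBD. Single DBD libraries reached down to 12.2 CPM in zQ175 and 15.5 CPM in WT, and Atp2b3 was below all DBD libraries in 4 of the 10 pairs.

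Impdh1, an enzyme of guanine nucleotide synthesis (chromosome 6, 29200434 to 29216364), had medians of 28.2, 27.3, 27.8, 21.2 and 22.1 CPM in zQ175 nZFP libraries, against 55.4, 54.9, 53.3, 55.0 and 54.7 CPM under DBD. In WT they were 24.1, 27.0, 27.8, 29.4 and 29.1 CPM under nZFP, against 64.4, 64.2, 56.9, 62.2 and 63.9 CPM under DBD. Groups were separate in 9 of 10 pairs. Mzt2, a subunit associated with the gamma-tubulin ring complex (chromosome 16, 15848441 to 15863369), had 10.4, 13.2, 8.89, 8.38 and 8.49 CPM in zQ175 nZFP libraries, against 19.2, 21.1, 19.7, 20.1 and 23.8 CPM under DBD. In WT it had 8.58, 11.6, 9.25, 9.01 and 9.14 CPM under nZFP, against 17.5, 19.7, 14.8, 17.3 and 19.8 CPM under DBD. Noa1, a GTPase of mitochondria (chromosome 5, 77294182 to 77310084), was lower to a lesser degree. Its medians were 12.9, 14.1, 12.6, 10.9 and 11.8 CPM in zQ175 nZFP libraries, against 21.2, 19.9, 20.6, 20.1 and 21.3 CPM under DBD. In WT they were 11.8, 12.2, 14.5, 12.4 and 11.4 CPM under nZFP, against 18.8, 17.3, 17.3, 17.1 and 18.3 CPM under DBD. Mzt2 was below all DBD libraries in 8 pairs of groups and Noa1 in 7.

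**Figure D2:**
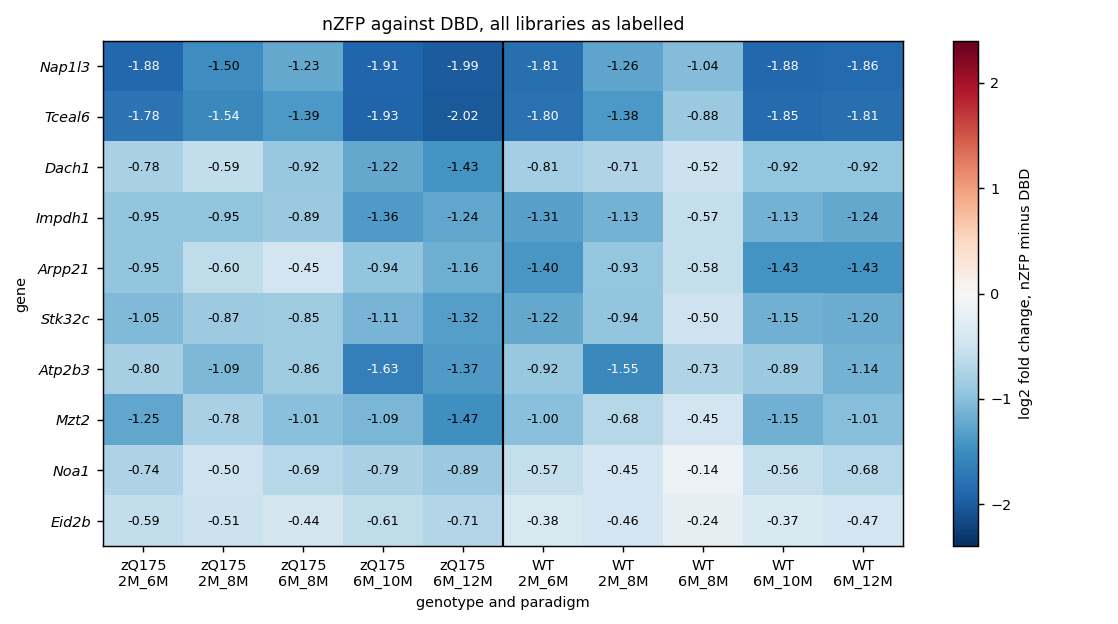
Log2 fold change of nZFP minus DBD for each gene (rows) in each genotype and paradigm (columns), from fits of all libraries as labelled. Every value is negative, from -2.02 for Tceal6 in zQ175 6M_12M to -0.14 for Noa1 in WT 6M_8M, and the 6M_8M columns of both genotypes include the 3 libraries whose vector entries contradict their label.

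Counted over the 10 genes with edgeR's quasi-likelihood test, 10, 10, 7, 10 and 10 were called lower under nZFP than under DBD in zQ175, in contrasts that called 14.4%, 2.9%, 0.0688%, 0.41% and 0.573% of all genes lower. In WT the counts were 10, 10, 0, 10 and 10, where 0.236%, 2.04%, 0.0625%, 0.297% and 0.206% of all genes were called lower. In WT 6M_8M, with 0 called by edgeR, 9 members had an unadjusted p under 0.05, and DESeq2 was not run for these contrasts. Since these contrasts chose the genes, nothing is read from the counts. The 6M_8M counts were 10 in zQ175 and 7 in WT once the 3 contradicting libraries were set aside. With the mouse as a block, which compares the hemispheres of the same animals, the count of 7 in zQ175 6M_8M became 3. The number of members with every nZFP library below every DBD library was 8, 8, 3, 10 and 9 in zQ175 and 8, 6, 0, 9 and 7 in WT as labelled, and 10 in zQ175 6M_8M and 6 in WT 6M_8M without the contradicting libraries. With all libraries as labelled, 1.17%, 0.551%, 0.0375%, 0.398% and 0.335% of all genes were separated in this way in zQ175. In WT the shares were 0.14%, 0.152%, 0.0312%, 0.164% and 0.116%. No share of all genes is given for the counts without the contradicting libraries or with the mouse block. The median log2 difference over the members was -0.95, -0.83, -0.87, -1.16 and -1.34 in zQ175 and -1.11, -0.94, -0.54, -1.14 and -1.17 in WT, while that over all genes lay between -0.04 and 0.01. In the same contrasts the median of the striatal projection list was 0.66, 0.49, 0.29, 0.33 and 0.37 in zQ175 and that of the neuron list lay between -0.11 and 0.06 in both genotypes.

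The control viruses were close to each other. DBD minus Estop ranged from -0.35 to 0.23 over the 10 genes and 5 paradigms in zQ175 and from -0.32 to 0.17 in WT (SE 0.06 to 0.29). The extremes in zQ175 were Atp2b3 and Mzt2 in 2M_6M and the highest value in WT was Mzt2 in 6M_10M, in each case beside a DBD library that stood apart in its length index. The lowest value in WT was Arpp21 in 6M_8M, where 2 contradicting libraries stand under the DBD label.

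In the 3 contradicting libraries of 6M_8M the members followed the vector entries and not the labels. In the library labelled WT DBD R8 of 6M_8M all 10 genes were nearer to the nZFP than to the DBD mean of that paradigm, and in R7 8 of 10 were, without Nap1l3. Nap1l3 stood at 11.6 CPM in R8 and 29.1 CPM in R7, both inside the nZFP range: the nZFP libraries ran from 7.07 to 37.1 CPM and the DBD libraries from 38.4 to 52.2 CPM. In the library labelled zQ175 nZFP R5, 9 of 10 genes were nearer to the DBD mean, with Nap1l3 at 49.9 CPM. Arpp21 stood at 1638 CPM there, above all zQ175 DBD libraries of 6M_8M (686 to 874 CPM) and inside the WT DBD range (1510 to 1705 CPM). The library labelled WT DBD R6 of 2M_6M held WPRE at a level within the Estop range (3.17 to 114 CPM), and its Estop entry, at 3.73 CPM, lay above all DBD libraries (at most 1.62 CPM) and within the Estop range (0.553 to 8.16 CPM). All 10 genes were nearer to the DBD than to the nZFP mean there, which does not separate DBD from Estop.

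The selection did not use the genotype difference under Estop, and the genotype difference could be tested. Arpp21 was lower in zQ175 in all 5 paradigms, Dach1 was lower in 3, and Noa1 and Eid2b were higher in 4. The log2 difference of Arpp21 was -1.04, -1.11, -0.98, -1.09 and -1.30 (SE 0.09 to 0.26; adjusted p = 0.0076 at most, edgeR). The mean of the 5 paradigms was -1.11 (SE 0.08), and every zQ175 Estop library lay below every WT Estop library. Dach1 differed by -0.30 in 2M_8M, -0.26 in 6M_10M and -0.29 in 6M_12M (adjusted p = 0.018, 0.012 and 0.047) and stood at -0.22 and -0.24 in 2M_6M and 6M_8M (adjusted p = 0.053 and 0.45). Impdh1 passed in 6M_10M only, at -0.29 (adjusted p = 0.0091), with values from -0.24 to -0.13 in the other paradigms.

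Noa1 was higher in zQ175 by 0.25 in 2M_6M and by 0.32, 0.22 and 0.24 in the 3 paradigms with injection at 6 months (adjusted p = 0.023, 0.0076, 0.028 and 0.02) and stood at 0.19 in 2M_8M (adjusted p = 0.076). Eid2b was higher by 0.41, 0.30, 0.32 and 0.34 in the same 4 paradigms (adjusted p from 6.6e-05 to 0.01) and stood at 0.26 in 2M_8M (adjusted p = 0.13). In the fit of all 30 groups, 4 members were lower and 3 higher in zQ175: Arpp21, Dach1 (-0.26), Impdh1 (-0.21) and Stk32c (-0.15) against Noa1 (0.24), Mzt2 (0.29) and Eid2b (0.32). Nap1l3, Tceal6 and Atp2b3, at 0.21, -0.04 and 0.10, did not pass (adjusted p = 0.062, 0.78 and 0.41). In that fit 22.5% of all genes were called lower and 24.1% higher, beside 4 and 3 of the 10 members. With 10 genes nothing is read from these counts. In the single paradigms 9.28%, 8.53%, 6.64%, 11.1% and 8.92% of all genes were called lower and 10.1%, 8.4%, 8.07%, 12.1% and 8.48% higher. The direction of the baseline difference did not follow that of nZFP, under which all 10 were lower. Under nZFP the genotype difference of Arpp21 was -0.49, -0.72, -0.62, -0.71 and -1.0, given as a description.

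**Figure D3:**
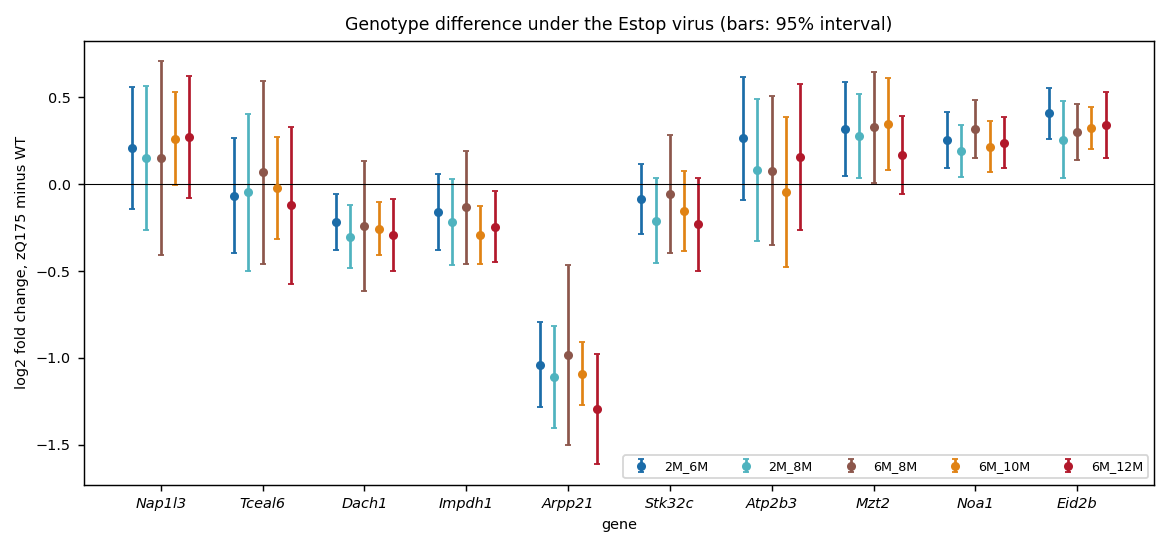
Log2 fold change of zQ175 minus WT in Estop libraries for each gene, coloured by paradigm, with bars for the 95% interval. Arpp21 lies near -1 in all 5 paradigms, Noa1, Mzt2 and Eid2b lie above 0 in all 5, and the other genes lie between -0.30 and 0.27.

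The amount of repressor varied 11.0-fold among the 77 nZFP libraries, and within groups most of the 10 genes were lower where there was more of it. Slopes were fitted within groups, so the group means that chose the genes play no part. Per doubling of ZFP-30645, 9 of 10 genes fell, in a fit that called 22.6% of 16067 genes lower. Nap1l3 fell by 0.63 (SE 0.08), Tceal6 by 0.51 (SE 0.09), Arpp21 by 0.47 (SE 0.04), Mzt2 by 0.38 (SE 0.04), Stk32c by 0.36 (SE 0.04) and Impdh1 by 0.31 (SE 0.04), with adjusted p from 3.92e-14 to 5.52e-06 (edgeR). Noa1 fell by 0.18, Dach1 by 0.12 and Eid2b by 0.09 (adjusted p = 1.34e-07, 0.00287 and 0.00941). Atp2b3 stood at -0.13 (SE 0.08, adjusted p = 0.196). The median slope over the members was -0.33, and that over all genes was near 0.

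The libraries with the least and the most ZFP-30645 came from different paradigms, so their values are a description. WT nZFP R1 of 2M_8M, with 98.7 CPM of ZFP-30645, held 1808 CPM of Arpp21 and 36.4 CPM of Nap1l3, both near the medians of WT DBD libraries. Mzt2 and Noa1 were also near those of 2M_8M. Tceal6, Dach1, Impdh1, Stk32c, Atp2b3 and Eid2b stood further below theirs. WT nZFP R5 of 2M_6M, with 1087 CPM of ZFP-30645, held 513 CPM of Arpp21 and 9.35 CPM of Nap1l3. Dach1 held 108 CPM in the first and 84.7 CPM in the second. Atp2b3 was higher in the second, at 42.7 CPM beside 34.2 CPM, and Eid2b held 18.0 CPM there beside 17.3 CPM. The other 5 genes were lower in the second.

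**Figure D4:**
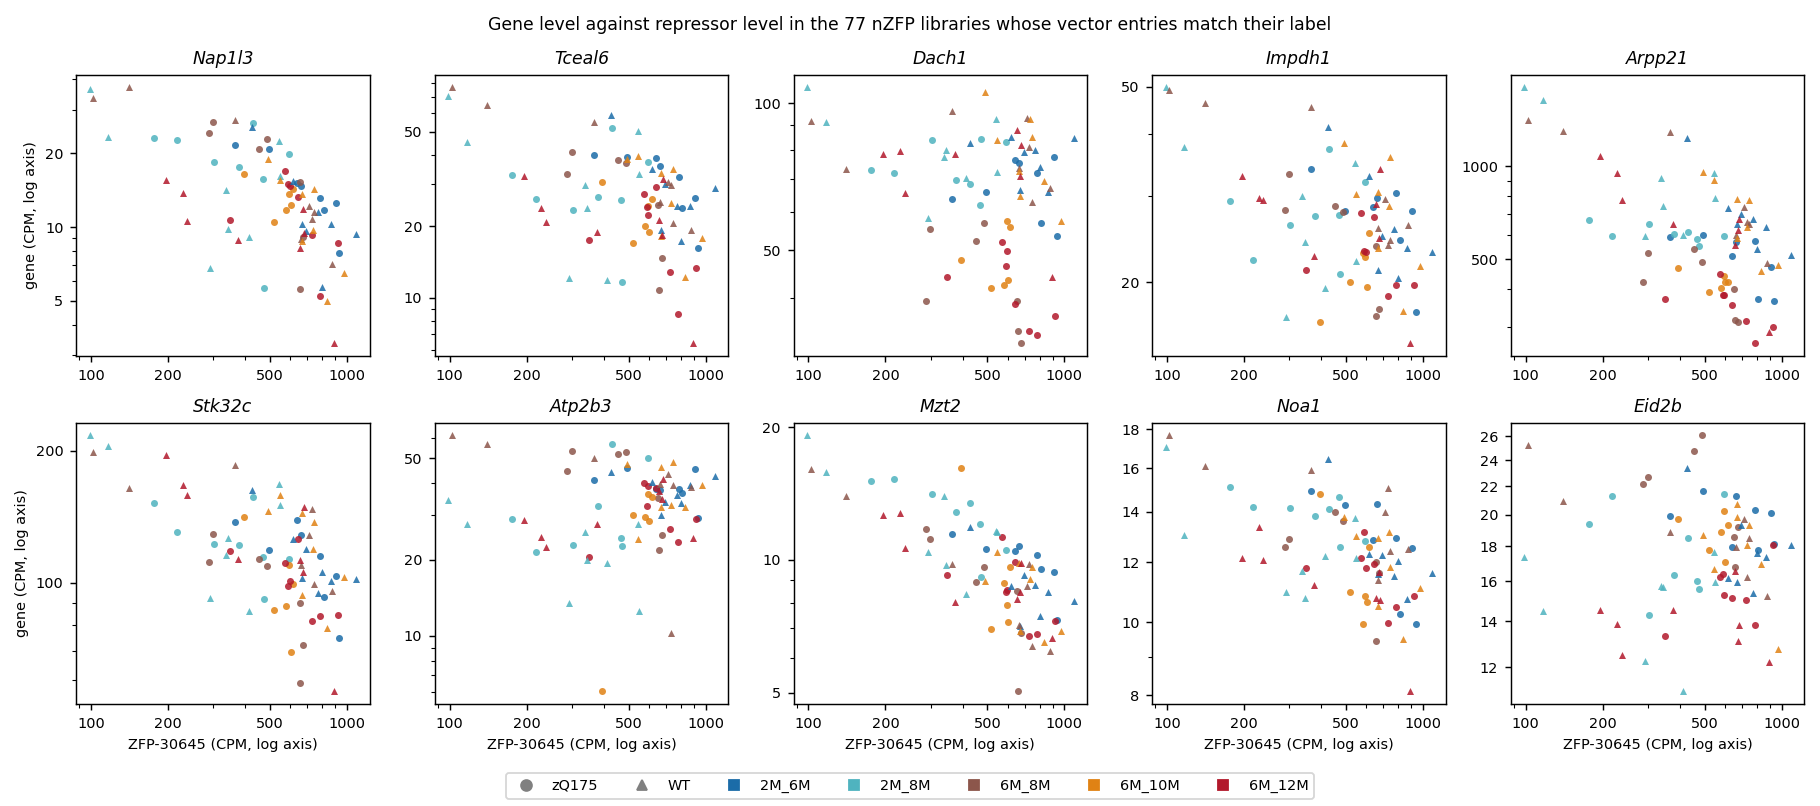
CPM of each gene against CPM of ZFP-30645 in the 77 nZFP libraries whose vector entries match their label (log axes), with circles for zQ175, triangles for WT and colours for paradigms. Nap1l3, Arpp21, Stk32c and Mzt2 are lower where ZFP-30645 is higher in both genotypes, while Atp2b3 and Eid2b scatter widely.

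Fitted by genotype, 8 members passed in zQ175, where 16.1% of all genes were called lower, and 9 in WT, where 12.4% were. Arpp21 fell by 0.34 per doubling in zQ175 (SE 0.08) and by 0.51 in WT (SE 0.04), and Mzt2 by 0.51 and 0.34 (SE 0.08 and 0.04). Atp2b3 stood at 0.02 in zQ175 (SE 0.18), and fell by 0.56 when the length index entered the fit (adjusted p = 0.00068). With the length index in the fit, edgeR called 83 of 16067 genes lower in zQ175, against 2585 without it. With a block for replicate number, which does not mark mice, edgeR called 0 of all genes in zQ175, with 4132 at an unadjusted p under 0.05. In WT that fit called 290 of 16067 genes lower. No slope differed between genotypes: edgeR called 0 of 16067 genes, 0% in either direction, and none of the 10 members had an unadjusted p under 0.05, against 2058 genes in all. DESeq2 was not run for this difference. The intervals were wide, from -0.55 to 0.25 for Nap1l3 and from -0.02 to 0.36 for Arpp21, so that the slopes are not shown to be alike. Within single paradigms Arpp21, Mzt2, Stk32c and Noa1 passed in 4 of 5, Nap1l3 and Impdh1 in 2, Tceal6, Atp2b3 and Eid2b in 1 and Dach1 in 0, and every slope of the 10 genes was negative except those of Atp2b3 in 6M_10M and 6M_12M and of Eid2b in 6M_12M. By paradigm 0, 5, 9, 4 and 5 members passed, where 0%, 2.45%, 8.38%, 14.9% and 21.8% of all genes were called lower. In 2M_6M edgeR called 0 of all genes, with 724 at an unadjusted p under 0.05, and DESeq2 was not run within paradigms.

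Marker genes were set against the same slopes. Of the 10 neuron genes 4 were called lower and 2 higher per doubling of ZFP-30645, and of the 10 striatal projection genes 2 were called lower and 4 higher, in the fit that called 22.6% of all genes lower and 22.3% higher. The median slopes of these lists were 0.02 and 0.05. Oligodendrocyte genes were called higher in 3 of 6 cases, with a median slope of 0.08, and in 4 of 6 per doubling of WPRE under nZFP, with a median of 0.10. The WPRE slope under nZFP called 2086 of 16553 genes higher. Under DBD 2 of the 6 were called higher on WPRE, where 24.1% of all genes were. The difference of the WPRE slopes, nZFP minus DBD, called 0 of the 6, and 57 of 16553 genes higher. Per doubling of ZFP-30645, cortical neuron and astrocyte genes were each called higher in 2 of 6, endothelial genes in 1 of 4, and 1 of 6 microglial genes was called lower. With the mean of the neuron list as a covariate 9 members were called lower, in a fit that called 3501 of 16067 genes lower, and the call of none of the 10 changed.

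WPRE is transcribed from both protein-coding vectors and so measures the vector in DBD libraries as well. In nZFP libraries 9 of 10 members fell per doubling of WPRE, where 11.6% of 16553 genes were called lower. In DBD libraries 1 member, Arpp21, fell, by 0.10 (adjusted p = 0.00405), and 1, Eid2b, rose by 0.06 (adjusted p = 0.00959), where 21% of all genes were called lower and 24.1% higher. By the labels, 37 mice gave both an nZFP and a DBD library, a pairing that the fit did not use. The difference of the slopes, nZFP minus DBD, was tested directly and passed as lower for 9 members, in a fit that called 1.82% of genes so. It was -0.50 for Nap1l3, -0.46 for Tceal6, -0.36 for Atp2b3, -0.30 for Arpp21, -0.29 for Impdh1, -0.22 for Stk32c, -0.21 for Mzt2, -0.15 for Dach1 and -0.12 for Eid2b (SE 0.03 to 0.09; adjusted p from 1.36e-05 to 0.0334). For Noa1 it was -0.10 (SE 0.03, adjusted p = 0.0953). Without the 2 libraries of each virus farthest from the median WPRE level, the calls of Arpp21, Nap1l3, Tceal6 and Impdh1 were kept and 5 were lost. That fit called 56 of 16524 genes lower. Without the 3 libraries that stood apart in their length index all 10 passed, in a fit that called 512 of 16630 genes lower.

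**Figure D5:**
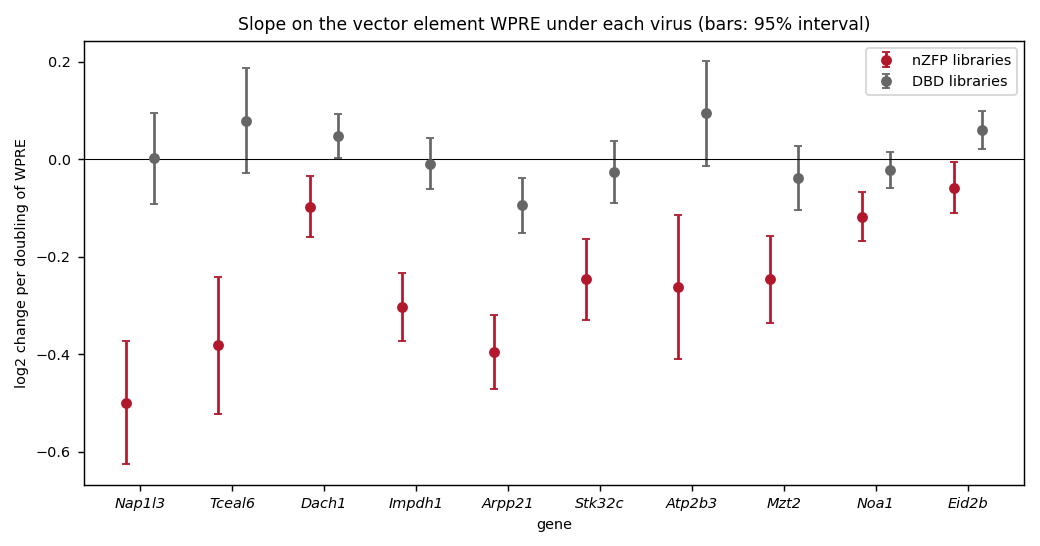
Log2 change per doubling of WPRE for each gene in nZFP libraries (red) and in DBD libraries (grey), with bars for the 95% interval. Slopes under nZFP lie between -0.50 and -0.06 and those under DBD between -0.10 and 0.09.

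A list of 23 genes held paralogues of the 10 genes, among them other Tceal, Nap1l, Atp2b and Stk32 genes, and Arpp19, which shares a name with Arpp21 but belongs to the endosulfine family. Over the 5 contrasts of nZFP minus DBD in zQ175 the list gave 13 calls lower and 7 higher among 115 gene and paradigm pairs, most of them in 2M_6M, with 11 lower and 4 higher, where 14.4% of all genes were called lower. Without the 3 libraries apart in length index, of which zQ175 DBD R3 belongs to that paradigm, the calls lower numbered 7. In WT edgeR called 0 of 115 pairs (15 lower and 10 higher at an unadjusted p under 0.05, DESeq2 not run for this count). Arpp19 gave 3 of the 7 calls higher and ranged from -0.15 to 0.65 over the 10 contrasts.

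The polyglutamine list holds mouse genes whose human counterparts have CAG tracts that expand in disease. In the first 1000 bases of their transcripts the longest runs were 6 copies in Atxn2, 5 in Atxn3 and Atxn7, 4 in Htt and 3 in Tbp, and the others were not analysed here for runs. Of 8 genes, edgeR called 1 of 40 gene and paradigm pairs lower in zQ175, and 0 of 40 in WT (3 lower and 0 higher at an unadjusted p under 0.05). The call, named after its values were seen, was Atxn7 in 2M_8M, at -0.33 with an SE of 0.11 (adjusted p = 0.0426), where 2.9% of all genes were called lower. It became 0 calls without the 3 libraries apart in length index, with the mouse block and with no count filter. Htt, whose zQ175 allele is the intended target, was called in 0 of 10 contrasts and ranged from -0.51 to 0.20. The gene entry does not separate the alleles.

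The run search was carried over to genes outside the 10. In the mean of the 5 paradigms, 9 of 52 genes with a run of at least 4 copies in a promoter window were called lower under nZFP than under DBD in zQ175, 17.3%, beside 8.64% of the 12415 genes with a window and 8.52% of all genes tested. In WT they were 2 of 52, 3.85%, beside 1.37% and 1.51%. With runs of at least 6 copies in the first 1000 bases of a transcript, a search chosen after the data had been seen, 17 of 100 genes were called lower in zQ175, beside 8.57% of 11761, and 6 of 100 in WT, beside 1.33%. With at least 8 copies, 10 of 36 were called lower in zQ175 and 3 of 36 in WT. At the threshold of 4 copies used for the members above, 50 of 478 were called lower in zQ175, 10.5%, and 14 of 478 in WT, 2.93%. Called higher at that threshold were 9.0% in zQ175, beside 8.75%, and 1.88% in WT, beside 1.97%. Most genes with such runs were not called. The 5 promoter genes with the lowest mean log2 difference over the 10 contrasts were BB031773 (-0.45), Oprl1 (-0.23), Dock11 (-0.17), Rsl24d1 (-0.17) and Nexmif (-0.17), called lower in 5, 4, 1, 3 and 1 of them, counts that the choice by these differences favours. Rsl24d1 holds the longest promoter run of the 5, with 17 copies. Among the transcript genes Kcnn3, a calcium-activated potassium channel with 7 copies, had a mean of -0.95 and was called lower in 7 of 10 contrasts, while Runx2, Maml3, Gas2 and Ngfr, with 7 to 10 copies, had means of -0.28 to -0.23 and 0 to 2 calls.

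The genes outside the 10 whose group means over the 30 groups were most like the mean profile of the members were Acsl1 (Pearson r = 0.92), Kcnn3 (0.91), Musk (0.90), Cadm3 (0.84) and Dnajc12 (0.82). The points share the 3 viruses and the depth of the libraries, and the correlations are descriptions. Acsl1 activates fatty acids, Musk is a receptor kinase and Cadm3 an adhesion protein of neurons. Among the members themselves the correlation with the profile, of which each is a part, ran from 0.74 for Arpp21 and 0.77 for Eid2b to 0.99 for Tceal6.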

How the data were processed

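PolyA RNA-seq of mouse striatum was deposited as estimated counts per gene, made by the authors with RSEM on GRCm38, per the submitters' processing notes, with versions not given in the sources used here. The labels name the polyA selection and the tissue. A second table, deposited by the authors, holds TPM values, that is levels per transcript length that sum to 1000000 in every library, although the design of this work had named FPKM. Of the estimated counts, 90.4% were whole numbers and all were rounded. The 6 vector entries, at most 0.669% of a library, entered neither library sizes nor tests, which left 41129 gene entries, 40254 of them with a symbol.

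Genes with enough counts (filterByExpr) were normalized by trimmed mean of M values (TMM) and fitted in edgeR 4.0.16 (R 4.3.3) with robust quasi-likelihood tests, group and sex as terms, and Benjamini-Hochberg adjustment over all genes tested (threshold 0.05). Each paradigm was 1 fit of its 6 groups, and 1 fit of all 30 groups gave the means of the 5 paradigms. Slopes on log2 CPM of ZFP-30645 or WPRE were fitted with the group as a term in the libraries whose vector entries matched their label, that is at least 50 CPM of ZFP-30645 under nZFP, less in the others, and at least 100 CPM of WPRE under DBD. CPM of genes in the text is TMM-scaled, while CPM of vector entries is relative to the summed gene counts without that scaling. The 95% intervals come from the fitted standard errors. Sequence runs were counted in Python 3.11.15. DESeq2 1.42.0, other size factors, no count filter, blocks for replicate number and for mouse, covariates for the neuron list and the length index, and subsets of libraries were tried as alternatives. The scripts were tested on simulated counts.

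The replicate numbers did not mark the same mouse. The mouse, taken from the labels, pairs libraries: over the 113 pairs the deviations from group means correlated with a median r of 0.39, and 93 pairs exceeded 0.1. Libraries are the samples of a group, each from a different mouse. The genes were chosen, and the paralogue, polyglutamine and marker lists drawn up, with earlier results of these data known. From these lists 1 gene is not reported here. The genes named outside the 10 are the 5 most like their mean profile over the 30 groups, the 5 with a promoter run and the lowest mean log2 difference, and genes of the paralogue list called in at least 3 of the 10 contrasts. The 5 transcript-run genes were added with the data in view by the same rule.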

Additional observations from a re-analysis of the deposited data

Results flagged for a closer look

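Within groups of 6 to 8 libraries, 300 gene and group combinations were searched for a single library far from the others, a search in which chance marks about 1 in 20. It marked 42, of which 4 came from the library labelled zQ175 nZFP R5 of 6M_8M, whose vector entries contradict its label: Arpp21 at 1640 CPM, Tceal6 at 86.6 CPM, Dach1 at 121 CPM and Impdh1 at 55.5 CPM. Further marks came from the 3 libraries that stood apart in the balance of long and short genes. zQ175 DBD R3 of 2M_6M held 1340 CPM of Arpp21, 73.9 CPM of Nap1l3, 155 CPM of Tceal6, 144 CPM of Dach1 and 44.2 CPM of Mzt2, all above its group, and 28.5 CPM of Impdh1 and 12.2 CPM of Atp2b3, both below it. WT DBD R2 of 6M_10M held 2290 CPM of Arpp21, 58.9 CPM of Nap1l3, 149 CPM of Tceal6, 391 CPM of Stk32c, 31.0 CPM of Mzt2 and 20.1 CPM of Noa1, above its group, and 15.5 CPM of Atp2b3, below it. zQ175 nZFP R2 of 6M_10M held 16.2 CPM of Mzt2, above its group, and 6.05 CPM of Atp2b3, below it. The part of RNA quality in these values was not tested.

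WT nZFP R1 of 2M_6M was above its group in 5 genes, at 1240 CPM of Arpp21, 58.9 CPM of Tceal6, 163 CPM of Stk32c, 11.9 CPM of Mzt2 and 16.4 CPM of Noa1. It also held the least ZFP-30645 of its group, 427 CPM, against 617 CPM or more in the others. WT Estop R1 of 2M_6M stood at 127 CPM of Tceal6, 19.5 CPM of Mzt2 and, below its group, 38.3 CPM of Atp2b3, and R7 of that group at 62.1 CPM of Nap1l3. WT DBD R7 of 2M_6M stood at 69.7 CPM of Impdh1 and 336 CPM of Stk32c. zQ175 DBD R7 of 2M_8M stood at 1150 CPM of Arpp21 and 63.5 CPM of Nap1l3.

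The remaining marks were single values, above their group except those of Dach1 and Atp2b3, which were below it. Arpp21 stood at 1120 CPM in zQ175 Estop R3 of 2M_6M. Tceal6 stood at 122 CPM in zQ175 DBD R4 and at 114 CPM in zQ175 Estop R7 of 6M_8M. Dach1 stood at 112 CPM in WT Estop R6 of 6M_10M, and Impdh1 at 65.4 CPM in zQ175 Estop R1 of 2M_8M. Stk32c stood at 239 CPM in zQ175 DBD R3 of 6M_10M, Mzt2 at 20.5 CPM in WT Estop R5 of 6M_8M, Atp2b3 at 10.3 CPM in WT nZFP R8 of 6M_8M and Eid2b at 33.4 CPM in zQ175 Estop R3 of 6M_10M.

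The slopes on WPRE differed between nZFP and DBD libraries by the test of the difference for 9 members: Nap1l3 (-0.50), Tceal6 (-0.46), Atp2b3 (-0.36), Arpp21 (-0.30), Impdh1 (-0.29), Stk32c (-0.22), Mzt2 (-0.21), Dach1 (-0.15) and Eid2b (-0.12), all in log2 per doubling and lower under nZFP.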

How the results depend on the processing

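The alternatives were DESeq2 with its size factors, the same size factors in edgeR, no count filter, blocks for replicate number and mouse, covariates for the length index and the neuron list, and subsets of libraries. Each member's log2 difference between nZFP and DBD or Estop kept its negative sign under each alternative run. In zQ175 6M_8M the mouse block gave 3 members called, against 7 without it, and in WT 6M_8M the count of 0 became 7 without the libraries that contradict their labels. Replicate numbers do not mark mice, and same-numbered libraries deviated together in 26 of 37 Estop but only 13 of 38 nZFP pairs. With the replicate block the members called lower on ZFP-30645 were 0 in zQ175, against 8 without it, and 5 in WT, against 9. In WT the fit with the block called 290 of 16067 genes lower. In zQ175 edgeR then called 0 genes in all, with 4132 at an unadjusted p under 0.05, and DESeq2 was not run with the block. For the difference of the WPRE slopes the block left 3 members called, and leaving out the 2 libraries of each virus farthest from the median level left 4, against 9. These fits called 14 of 16553 and 56 of 16524 genes lower. The block also gave 12 paralogue calls higher and 5 polyglutamine calls higher. With the length index as a covariate 6 members in 2M_6M and 5 in 2M_8M differed by genotype under Estop, against 3 and 2 without it. This covariate also turned the slopes of Atp2b3, to -0.56 per doubling of ZFP-30645 in zQ175 (adjusted p = 0.00068) and -0.14 per doubling of WPRE under DBD (adjusted p = 1.4e-05). On ZFP-30645 in zQ175 the fit with the covariate called 83 of 16067 genes lower, against 2585 without it. Paralogue calls lower were 8 with the mouse block and 7 without the 3 libraries apart in length index, a subset chosen after seeing the data. Polyglutamine calls lower were 0 with no count filter, with the mouse block and without those 3 libraries, against 1. Genes with promoter runs were called lower in 10.1% of cases at 3 copies or more and 30.0% at 6 or more (3 of 10) in zQ175, and in 2.36% and 0% in WT. In WT nZFP minus Estop gave 11.5% at 4 copies or more, beside 3.77% of all genes with a window. In that contrast transcript runs of at least 6 copies, also chosen after seeing the data, gave 12.0%, beside 3.78% of 11761 genes. Transcript runs of at least 4 copies gave 6.9% there. In WT nZFP minus DBD, runs of at least 6 copies gave 6% and those of at least 4 gave 2.93%. The cause of these changes was not tested. The mouse block over all 30 groups was not run.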
